A study of Mus musculus with 6 samples.

Results

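Kinesins are motor proteins that use ATP to walk along or reshape microtubules, and the genes described here are those whose symbol is Kif followed by a number and at most one letter from a to c. The platform annotation gives 99 probe sets 1 such symbol and no other, out of 45037 probe sets tested, and they stand for 37 genes out of 18193. For each gene the probe set that averaged highest across the 6 arrays, called its brightest, stands for the gene, and further probe sets are described separately. By role the 37 genes fall into 13 that carry cargo, 12 that act in cell division, 3 that regulate microtubule growth, 5 of cilia, centrioles and Hedgehog signalling, and 4 others.

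Cerebellar tissue came from wild-type mice and from transgenic mice with the genotype daDREAM, 3 arrays each, and the labels call each array an independent biological replicate. DREAM, the product of Kcnip3, is a calcium-binding protein that represses transcription at DRE sites until calcium releases it, and daDREAM is a mutant form that does not respond to calcium. The labels and notes used here do not state strain, age, sex or the promoter driving the transgene, and all transgenic arrays carry the code L33 in their labels, without a statement of what it marks. Values are log2 expression values after RMA (background correction, equalising of the arrays and 1 summary value per probe set), and differences are daDREAM minus wild type.

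Neurons depend on kinesins because axons and dendrites are supplied from the cell body. The conventional kinesin heavy chains (Kif5a, Kif5b, Kif5c) and the relatives of Kif1a move vesicles, mitochondria and other cargo along axons, and the Kif3 motors also build cilia. Mitotic kinesins assemble the spindle, move chromosomes and complete cytokinesis, and their transcripts are known to rise in dividing cells. The protein DREAM is unrelated to the multiprotein complex of the same name that represses cell cycle genes through promoter words of the cell cycle homology region.

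Purkinje and granule cell markers fixed for the tissue check were bright, with means of 10.37 to 12.63 over 6 Purkinje genes and 6.79 to 12.17 over 7 granule cell genes, and the labelled cerebellum therefore carried its defining markers. The array medians over all probe sets ran from 5.12 to 5.23 and the interquartile ranges from 2.97 in daDREAM replicate 3 to 3.49 in daDREAM replicate 1. The 18 probe sets for spiked hybridization controls averaged 8.99 to 9.48 in wild type and 9.47 to 10.47 in daDREAM. Only daDREAM replicate 1, at 9.47, lay within the wild-type range. What shifted these controls cannot be told apart from genotype, and its part in the kinesin values was not tested. Kcnip3 overlapped between genotypes at both its probe sets, with differences of 0.10 and 0.11. Whether either probe set detects the transgene is not known here, so they do not check the genotype labels. The genotype cannot be told apart from choroid plexus content, whose 10 of 10 measured markers were higher in daDREAM, where 51.2% of all genes were. Of the 10, 5 were higher without overlap (3.55% of all genes), and 0 passed the adjusted limma test. Sostdc1 had the largest difference, 1.07 (95% interval 0.55 to 1.59, adjusted p 0.998 in limma). The array means of these markers were 5.74 to 6.01 in wild type and 6.12 to 6.45 in daDREAM. The part of choroid plexus content in the kinesin values was not tested.

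No kinesin gene passed the test of genotype. With limma over all probe sets, 0 of 37 kinesin genes and 0 of 99 kinesin probe sets reached an adjusted p under 0.05, where 0% of all probe sets did, and the smallest adjusted p was 0.998. Without adjustment, 0 of 37 genes against 1.42% of all genes, and 2 of 99 probe sets against 1.81% of all probe sets, had p under 0.05. Of the 37 genes 16 were above 0, 19 below and 2 at 0, where 51.2% of all genes were above 0. Their median difference was -0.01 and their median absolute difference 0.08, against 0.01 and 0.10 over all genes. At the brightest probe sets, 25 of the 37 genes had a 95% interval inside 0.5 log2 units (1.41-fold) on either side. The widest excursions there were -0.84 for Kif26b and 0.64 for Kif7. Some of the 25 are among the dimmest of the table, such as Kif14 at 3.02 and Kif20b at 3.07. A narrow interval in such dim probe sets need not bound a change in transcript. Further probe sets could have wider intervals, such as 1425270_at of Kif1b, from -1.14 to 0.98. Tissue arrays cannot tell fewer cells of a type from less RNA per cell.

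**Figure D1:**
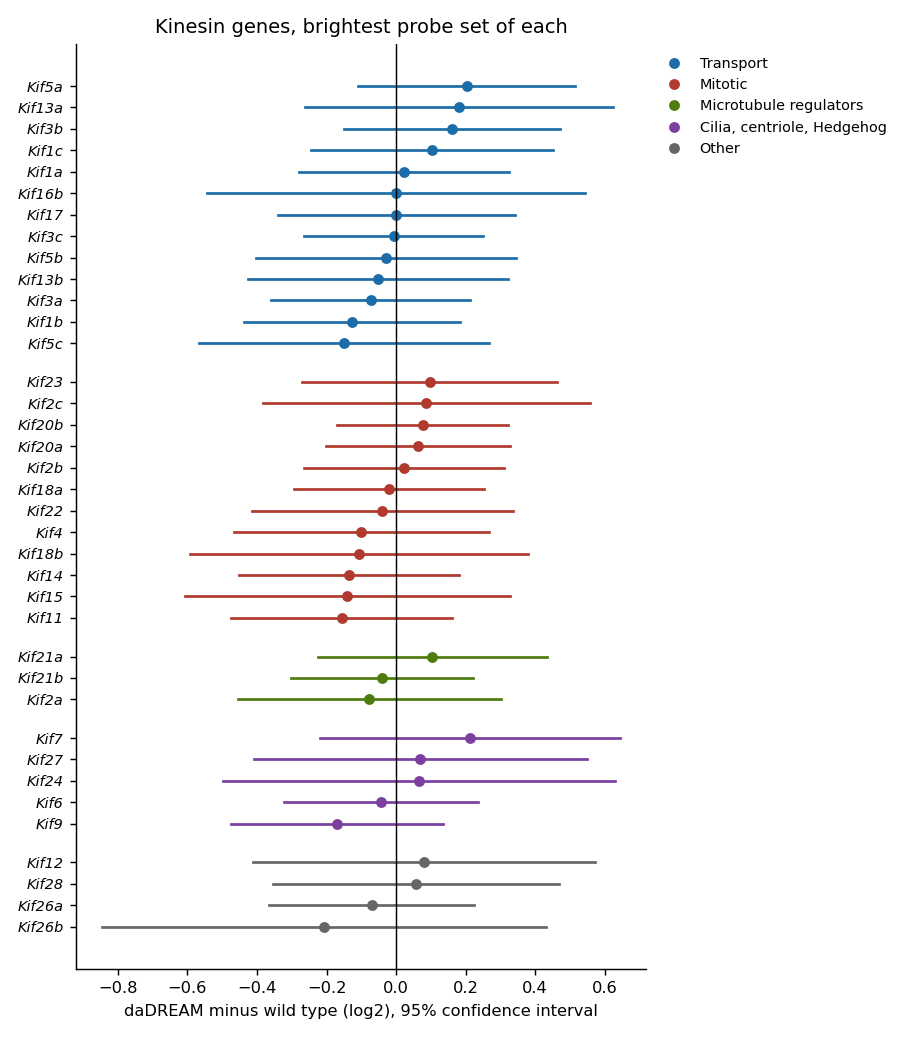
Difference between daDREAM and wild type (log2, horizontal axis) for the 37 kinesin genes at their brightest probe set, with 95% confidence intervals from limma on 3 arrays per genotype, coloured by role. All 37 intervals cover 0.

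Cargo-carrying kinesins lay on both sides of 0. Of the 13 genes 5 were above 0, 6 below and 2 at 0, with a median of 0.00 and a range from -0.15 to 0.20. Their brightest probe sets ranged from 4.48 for Kif16b to 11.24 for Kif5c. Probe sets bind their targets with different strength, so these values do not rank transcripts.

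The 3 heavy chains of conventional kinesin gave differing values. Kif5a, the neuronal heavy chain, stood at 10.95, 11.14 and 11.30 on the wild-type arrays and at 11.20, 11.40 and 11.40 on the daDREAM arrays. Only daDREAM replicate 1 fell within the wild-type range, and the difference was 0.20 (interval -0.11 to 0.52). Kif5c, a second neuronal heavy chain, stood at 11.28, 11.37 and 11.30 in wild type and at 11.57, 11.06 and 10.87 in daDREAM. The wild-type arrays sat close together between the daDREAM arrays, of which replicate 1 was above and the others below, and the difference was -0.15 (interval -0.57 to 0.27). Kif5b, the widely expressed heavy chain, stood at 9.0, 9.06 and 9.29 in wild type and at 9.32, 9.14 and 8.80 in daDREAM, a difference of -0.03 (interval -0.40 to 0.34).

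The relatives of Kif1a differed by at most 0.18 in either direction at their brightest probe sets. Kif1a, which carries precursors of synaptic vesicles, stood at 9.47, 9.5 and 9.17 in wild type and at 9.41, 9.46 and 9.34 in daDREAM, a difference of 0.02 (interval -0.28 to 0.33). Kif1b, which moves mitochondria and vesicles, stood at 11.12, 11.15 and 11.10 in wild type and at 11.22, 10.96 and 10.81 in daDREAM. As for Kif5c, daDREAM replicate 1 lay above and the other daDREAM arrays below all wild-type arrays, and the difference was -0.13 (interval -0.44 to 0.18). Kif1c, a motor of vesicles, differed by 0.10 and Kif13b by -0.05. Kif13a, which carries mannose 6-phosphate receptor vesicles, stood at 8.0, 8.26 and 7.90 in wild type and at 8.60, 8.20 and 7.90 in daDREAM, a difference of 0.18 (interval -0.26 to 0.62). Its single value above the wild-type range was again daDREAM replicate 1. Kif16b, a motor of early endosomes, had a mean of 4.48 in both genotypes, with SDs of 0.17 in wild type and 0.49 in daDREAM (n = 3).

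In the heterotrimeric kinesin, which drives transport inside cilia as well as in axons, Kif3a and Kif3b pair with each other and Kif3c can take the place of Kif3b. Kif3b stood at 7.45, 7.49 and 7.19 in wild type and at 7.41, 7.67 and 7.53 in daDREAM, a difference of 0.16 (interval -0.15 to 0.47). For Kif3a the difference was -0.07, and its 4 probe sets were all below 0. Kif3c was among the closest matches between genotypes, at 9.38 ± 0.06 in wild type and 9.38 ± 0.07 in daDREAM (SD, n = 3). Kif17, the homodimeric relative that moves NMDA receptor vesicles in dendrites, was at 5.97 in both genotypes (SD 0.20 and 0.16, n = 3).

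**Figure D2:**
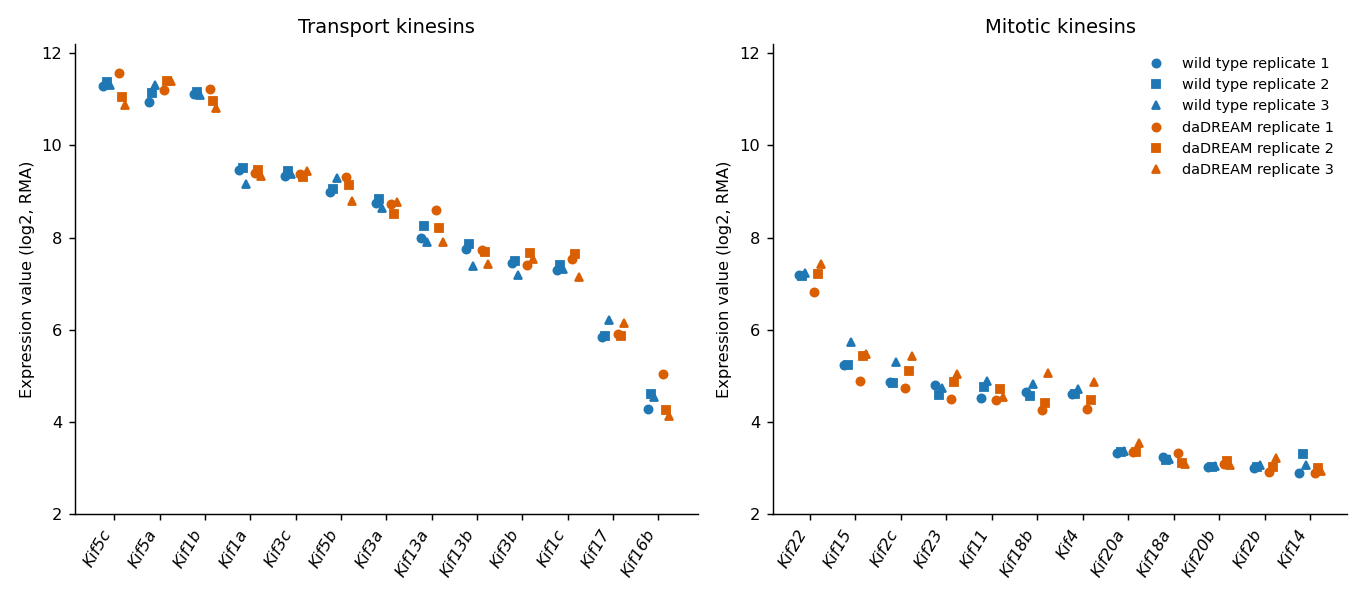
Expression value (log2 after RMA, vertical axis) of the 13 transport and 12 mitotic kinesins on each of the 6 arrays, blue for wild type and orange for daDREAM, with a marker shape per replicate number. In the bright genes Kif5c and Kif1b the daDREAM circle (replicate 1) is highest and the triangle (replicate 3) lowest, and in the mitotic genes Kif22, Kif2c, Kif23, Kif18b and Kif4 the order of these arrays is the opposite.

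Several transport kinesins had a further probe set whose genotypes did not overlap, and all of these were higher in daDREAM. Over the 99 probe sets 8 were higher without overlap, against 3.75% of all probe sets, and 0 were lower without overlap, against 2.26%. Of the 8, 7 belong to transport kinesins and 1 to the mitotic Kif20b, and none passed the adjusted limma test. At the level of genes 1 of 37 was higher without overlap (3.55% of all genes) and 0 of 37 lower (2.04%). The gene is Kif20b, and the other 7 probe sets are not the brightest of their gene. In direction, 54 of 99 kinesin probe sets were above 0, where 51.8% of all probe sets were. The count depended on scaling. After each array was centred on its median, a setting added after the data were seen, 5 were higher (3.03% of all probe sets) and 1 lower (3.18%), with 4 of the 8 kept. After renewed quantile normalization 7 were higher (4.34% of all probe sets) and 2 lower (3.95%), with 5 of the 8 kept. In the table as a whole the higher and lower shares were thus closer to each other under both scalings than in the deposited values. Counts grow when an array is left out, since fewer arrays overlap less often, but the growth depended on the array. Leaving out any array but daDREAM replicate 1 gave whole-table shares of 5.8% to 9.67% higher and 4.12% to 7.87% lower. Why the shares rose most without daDREAM replicate 1 was not tested. Without daDREAM replicate 1, 23 were higher (17.67% of all probe sets) and 10 lower (15.04%), and without wild-type replicate 3, 14 were higher (9.67%) and 3 lower (7.87%).

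The values of these probe sets are as follows. At 1421053_at Kif1a stood at 8.40, 8.41 and 8.34 in wild type and at 8.57, 8.80 and 8.87 in daDREAM. All daDREAM arrays were above all wild-type arrays, by 0.36 on average (interval 0.08 to 0.65) or 1.29-fold, with an unadjusted p of 0.0188 and an adjusted p of 0.998 in limma. The brighter Kif1a probe set differed by 0.02, as given above. At 1450804_at Kif5c stood at 8.10, 8.23 and 8.27 in wild type and at 8.52, 8.40 and 8.46 in daDREAM, a difference of 0.26 (interval -0.00 to 0.52), while its brightest probe set differed by -0.15 and 2 others by -0.23 and 0.10. At 1450249_s_at Kif5a stood at 7.92, 7.98 and 8.05 in wild type and at 8.24, 8.16 and 8.22 in daDREAM. That difference of 0.22 (interval -0.03 to 0.48) is close to the 0.20 of its brightest probe set, and its dimmest differed by 0.11, so all 3 probe sets of Kif5a lay above 0. At 1451762_a_at Kif1b stood at 7.12, 7.28 and 7.26 in wild type and at 7.48, 7.45 and 7.39 in daDREAM, a difference of 0.22, whereas the other 6 Kif1b probe sets differed by -0.21 to 0.11.

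Kif13a had 2 such probe sets. At 1439532_s_at it stood at 4.91, 5.0 and 4.91 in wild type and at 5.15, 5.21 and 5.47 in daDREAM, a difference of 0.34 (interval 0.04 to 0.63) with an unadjusted p of 0.0296 and an adjusted p of 0.998 in limma. At 1451890_at the difference was 0.16 (interval -0.11 to 0.44). The other Kif13a probe sets differed by -0.12 to 0.18. Kif3b was higher without overlap at 1450074_at, by 0.17 (interval -0.11 to 0.45), and its other probe sets differed by -0.07 to 0.17. Kif20b, at 3.03 in wild type, was higher by 0.08 and is among the dimmest probe sets of the table. Names ending in _s_at or _x_at mark probe sets with probes that can match more than 1 transcript, so part of that signal may not be from the named gene.

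**Figure D3:**
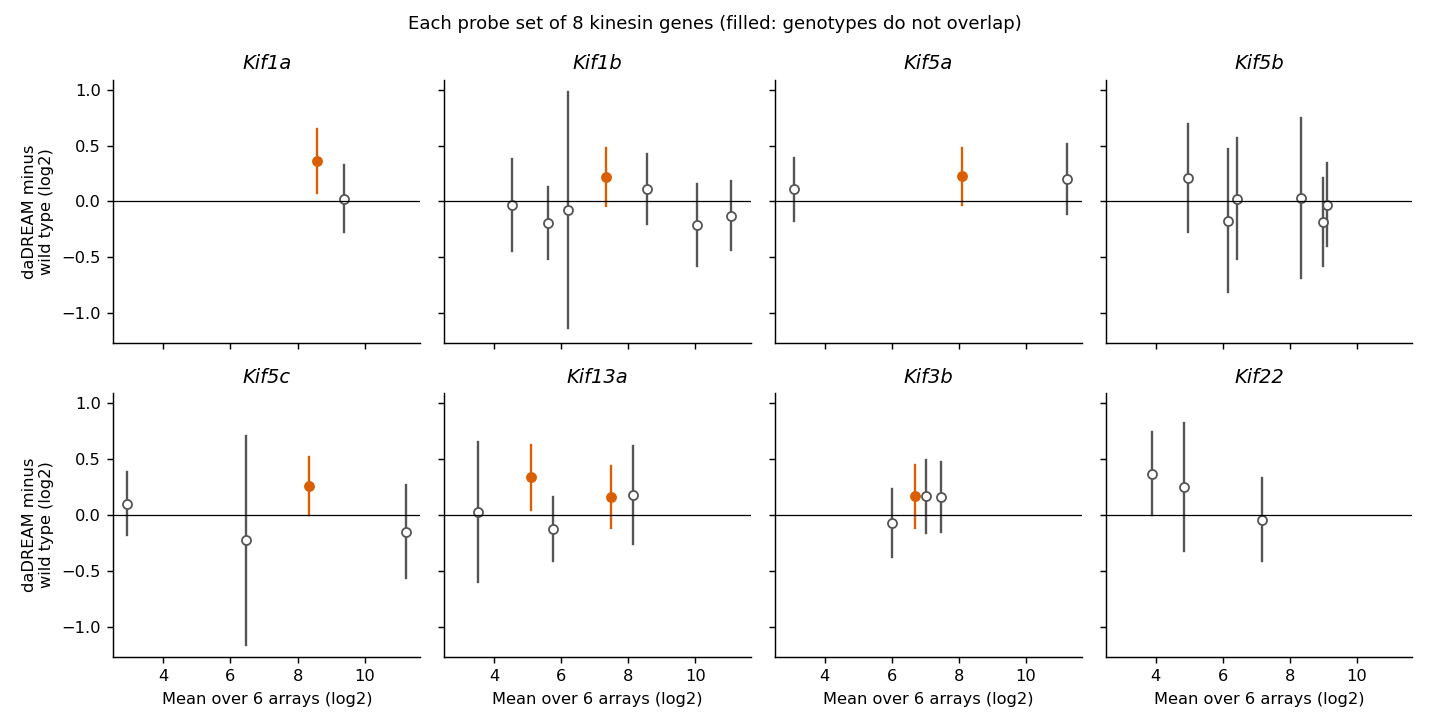
Each probe set of 8 kinesin genes, with its mean over the 6 arrays (log2, horizontal axis) and its difference between daDREAM and wild type (log2, vertical axis) with the 95% confidence interval. Filled orange points are probe sets whose genotypes do not overlap, all of them above 0, and none is the brightest of its gene. In Kif5c the brightest lies at -0.15 and a dimmer one at 0.26.

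Probe sets of 1 kinesin gene often differed in sign. Of the 25 kinesin genes with more than 1 probe set, 9 had all of them on the same side of 0 and 15 had probe sets on both sides. The share over all genes was not computed, so these counts do not set kinesins apart. The spread of differences within a gene reached 0.49 in Kif5c, 0.46 in Kif13a and 0.43 in Kif1b, and no gene exceeded 0.5. The least reproducible single values also came from this group. At 1425270_at Kif1b ran from 5.23 to 6.84 within wild type, and at 1422945_a_at Kif5c ran from 5.80 to 7.61 within wild type. At 1418429_at Kif5b stood at 8.25, 8.30 and 8.41 in wild type but at 9.15, 8.13 and 7.77 in daDREAM. These spans within a genotype are larger than any kinesin difference between genotypes.

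No mitotic kinesin passed the adjusted limma test, and their differences lay on both sides of 0. Of the 12 genes 5 were above 0 and 7 below, with a median of -0.03 and a range from -0.16 to 0.10. Their brightest probe sets ranged from 3.02 for Kif14 to 7.18 for Kif22, with a median of 4.61. Because the deposited table has no detection calls, background and weak expression cannot be told apart in dim probe sets. The 19 measured markers of dividing cells, such as the kinase gene Aurka, had a median level of 4.5 and a median difference of 0.00, and their array means ran from 4.57 to 4.71 in wild type and from 4.5 to 4.76 in daDREAM.

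Promoter sequences were compared between mitotic and transport kinesins as a description, with no test. RefSeq promoter windows of build GRCm38.p6, from 250 bases before to 50 bases after an annotated start, were found for 31 of the 37 genes. Kif5a, Kif5b, Kif13b, Kif20a, Kif21b and Kif28 had none in the table. The cell cycle homology region was searched as TTTGAA or TTCGAA on both strands. It was found in 9 of 11 mitotic genes and in 1 of 10 transport genes, where 21.7% of all 27025 genes with a window hold it. In 7 of the 11 mitotic genes the word began within 30 bases of the start, a distance chosen after the positions were seen, and this held for 0 of 10 transport genes, for Kif24 among 5 genes of cilia and Hedgehog signalling, for Kif26b among 3 other kinesins, and for 3.95% of all genes. In the mitotic genes Kif14 and Kif2c it lay farther off. CCAAT, the word of the factor NF-Y, was found in 7 of 11 mitotic and 3 of 10 transport genes, where 41.1% of all genes hold it. A match describes the letters only, not binding, and these arrays did not measure it.

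The start regions of those 7 mitotic genes are shown so that the word can be read in its context. They were selected by the distance limit, so the nearness of the word to the start is not a finding. Each runs from 60 bases before to 28 bases after the start, 5′ to 3′ on the strand of the gene, with the cell cycle homology words in capitals (TTCAAA is TTTGAA read from the opposite strand). Kif11 (spindle bipolarity) is on the + strand at chr19:37376322-37376409, Kif15 (spindle maintenance) on the + strand at chr9:122951021-122951108, and Kif22 (a chromosome-binding motor) on the - strand at chr7:127042393-127042480. Kif23 (the midzone motor of cytokinesis) is on the - strand at chr9:61946772-61946859, Kif4 (a chromokinesin) on the + strand at chrX:100626005-100626092, Kif20b (a cytokinesis motor) on the + strand at chr19:34922298-34922385, and Kif18b (astral microtubules) on the - strand at chr11:102925097-102925184.
Kif11: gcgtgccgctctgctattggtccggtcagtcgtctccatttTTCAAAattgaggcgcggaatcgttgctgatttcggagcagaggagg
Kif15: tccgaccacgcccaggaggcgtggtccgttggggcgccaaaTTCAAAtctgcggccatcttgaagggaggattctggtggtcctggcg
Kif22: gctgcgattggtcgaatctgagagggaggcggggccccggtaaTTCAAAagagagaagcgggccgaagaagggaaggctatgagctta
Kif23: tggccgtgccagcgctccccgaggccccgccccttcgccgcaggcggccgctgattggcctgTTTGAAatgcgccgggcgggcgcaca
Kif4: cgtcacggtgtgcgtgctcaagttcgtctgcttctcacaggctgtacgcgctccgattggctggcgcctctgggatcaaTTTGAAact
Kif20b: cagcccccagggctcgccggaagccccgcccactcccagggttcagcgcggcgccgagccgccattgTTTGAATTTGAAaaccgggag
Kif18b: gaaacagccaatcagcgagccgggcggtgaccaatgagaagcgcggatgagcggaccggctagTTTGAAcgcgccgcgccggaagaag

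In these windows the word began 19 bases before the start in Kif11 and Kif15 and 17 before it in Kif22. It began at base 3 after the start in Kif23, base 4 in Kif18b, base 8 and base 14 in Kif20b and base 20 in Kif4. The differences of these 7 genes between genotypes ran from -0.16 for Kif11 to 0.10 for Kif23.

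DRE words, the sites of the DREAM protein, were searched on both strands as GTCAAAG and the variant GTCAAGG, and as GTCAGAG and the variant GTCAGGG. They were found in 6 of 31 kinesin genes, where 19.0% of all genes hold one, in 0 of 11 mitotic and 3 of 10 transport genes. The windows end 50 bases after the start, so words farther downstream were not searched. The 3 matches that lie before the start on the strand of the gene are shown with the word in capitals: Kif1c on the + strand at chr11:70700363-70700412, Kif3b on the + strand at chr2:153291241-153291290, and Kif21a on the - strand at chr15:91050055-91050104.
Kif1c: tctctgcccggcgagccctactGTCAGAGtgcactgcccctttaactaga
Kif3b: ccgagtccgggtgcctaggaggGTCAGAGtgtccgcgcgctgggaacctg
Kif21a: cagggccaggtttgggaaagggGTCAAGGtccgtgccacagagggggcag

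The word began 163 bases before the start in Kif1c, 153 in Kif3b and 131 in Kif21a. These 3 genes differed by 0.10, 0.16 and 0.10 at their brightest probe sets, all with intervals that cover 0. The other 3 genes with a DRE word are not shown and differed by 0.02 for Kif1a, -0.04 for Kif6 and -0.17 for Kif9. The word of Kif6 also lies on the strand of the gene, at base 35 after the start, and those of Kif1a and Kif9 lie on the opposite strand. The genes with a DRE word thus lay on both sides of 0.

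**Figure D4:**
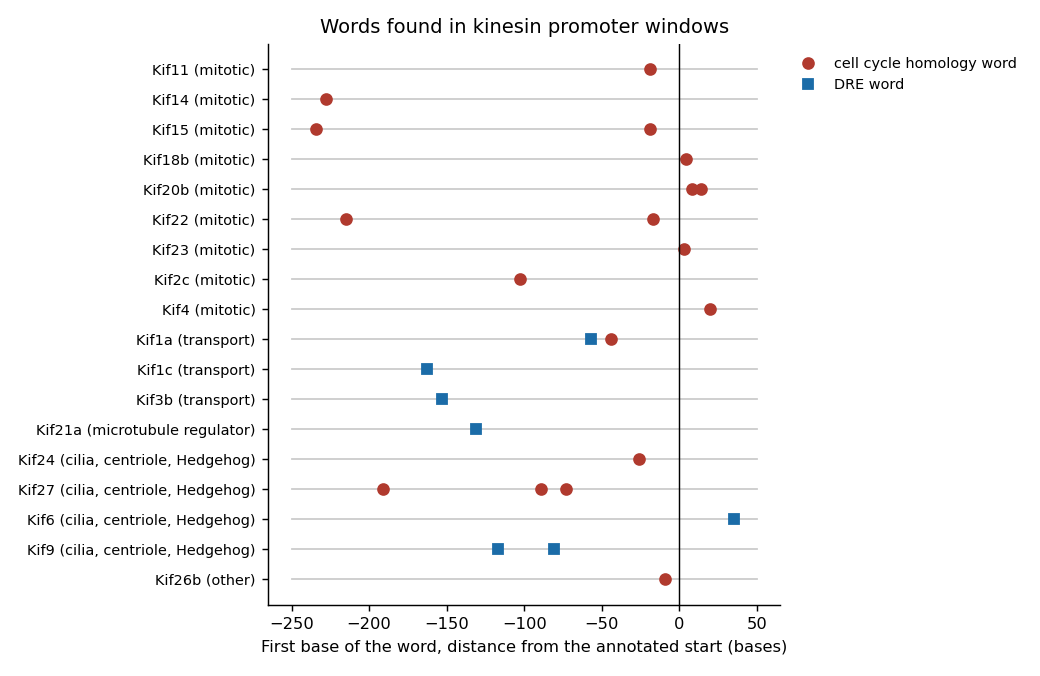
Position of the first base of each word (bases from the annotated start, horizontal axis, window -250 to 50) in the kinesin genes that hold one, red circles for the cell cycle homology region and blue squares for DRE words. Homology region words of 7 mitotic genes and of Kif24 and Kif26b lie within 30 bases of the start, and DRE words occur in none of the 11 mitotic genes searched. Kif9 has 2 overlapping windows, so its word appears at 2 distances.

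The 4 brightest mitotic kinesins illustrate how the arrays spread. Kif22 stood at 7.19, 7.17 and 7.24 in wild type and at 6.83, 7.22 and 7.43 in daDREAM, so the wild-type arrays sat between the daDREAM arrays. Its difference was -0.04 (interval -0.41 to 0.33) at an _x_at probe set, and its dimmer probe sets differed by 0.25 and 0.37. Kif15 stood at 5.24, 5.24 and 5.73 in wild type and at 4.89, 5.43 and 5.47 in daDREAM, a difference of -0.14 (interval -0.61 to 0.33).

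Kif2c, a depolymerase that corrects chromosome attachments, stood at 4.88, 4.84 and 5.31 in wild type and at 4.75, 5.10 and 5.44 in daDREAM, a difference of 0.09 (interval -0.38 to 0.56). Kif23 stood at 4.81, 4.59 and 4.73 in wild type and at 4.51, 4.86 and 5.05 in daDREAM, a difference of 0.10 (interval -0.27 to 0.46). In all 4 genes daDREAM replicate 1 was the lowest array, and in Kif22, Kif2c and Kif23 daDREAM replicate 3 was the highest.

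Kif11 had the smallest unadjusted p of the mitotic list. It stood at 4.53, 4.77 and 4.89 in wild type and at 4.47, 4.71 and 4.54 in daDREAM, a difference of -0.16 (interval -0.48 to 0.16), and all 3 of its probe sets lay below 0. Kif14, which acts in cytokinesis, stood at 2.89, 3.31 and 3.07 in wild type and at 2.90, 3.01 and 2.95 in daDREAM, near the dim end of the table. The remaining mitotic genes, Kif2b, Kif4, Kif18a, Kif18b, Kif20a and Kif20b, differed by -0.11 to 0.08.

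Transport and mitotic kinesins followed the arrays in opposite directions, and the spread between daDREAM arrays was larger than the difference between genotypes. The mean of the 13 transport genes was 8.50, 8.61 and 8.52 on the wild-type arrays and 8.70, 8.55 and 8.44 on the daDREAM arrays. For the 12 mitotic genes the wild-type means were 4.28, 4.31 and 4.44, and the daDREAM means were 4.13, 4.32 and 4.48. Thus daDREAM replicate 1 was the highest array for transport kinesins and the lowest for mitotic kinesins, and daDREAM replicate 3 the reverse, while the genotype means differed by 0.02 and -0.03.

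The whole table showed the same split by brightness. Where the mean of a probe set was 7 or more, daDREAM replicate 1 was the highest array in 38.2% and daDREAM replicate 3 the lowest in 48.4% of the whole table's probe sets. Of the 31 kinesin probe sets that bright, these arrays were highest in 14 and lowest in 12. Below a mean of 5, daDREAM replicate 1 was the lowest array in 38.4% of all probe sets and in 22 of 49 kinesin probe sets, and daDREAM replicate 3 the highest in 39.4% and in 20 of 49. The widths of the arrays differed in the same order, since daDREAM replicate 1 had the largest interquartile range and daDREAM replicate 3 the smallest. After renewed quantile normalization, a setting used on these means after the data were seen, the range of the transport means over the 6 arrays went from 0.26 to 0.12 and that of the mitotic means from 0.35 to 0.21. The SD was larger in daDREAM than in wild type in 26 of 37 kinesin genes and in 71.4% of all genes.

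**Figure D5:**
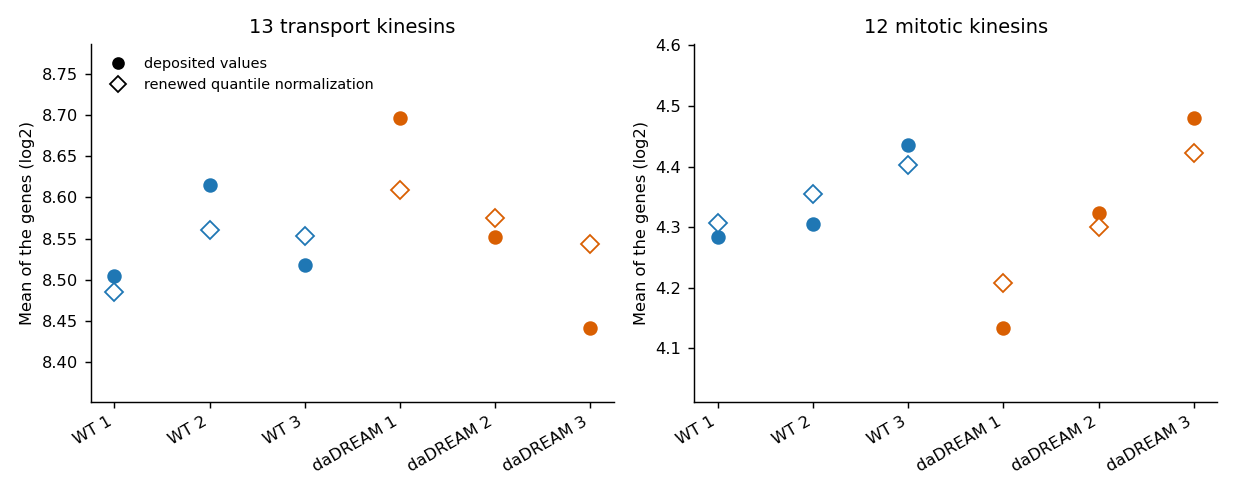
Mean of the 13 transport and the 12 mitotic kinesins on each array (log2, vertical axes on different scales and not starting at 0), filled circles for deposited values and open diamonds after renewed quantile normalization, blue for wild type and orange for daDREAM. daDREAM replicate 1 is the highest array in transport kinesins (8.70) and the lowest in mitotic kinesins (4.13), and daDREAM replicate 3 is the lowest in the former (8.44) and the highest in the latter (4.48).

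Leaving out daDREAM replicate 1 changed the unadjusted counts most. Without it 3 kinesin genes had an unadjusted p under 0.05, against 16.5% of all genes, and none passed the adjusted limma test. They were Kif7 at 0.42 (adjusted p = 0.221), Kif26b at -0.56 (adjusted p = 0.215) and Kif5c at -0.35 (adjusted p = 0.245), each on 3 wild-type and 2 daDREAM arrays. Without daDREAM replicate 3 there was 1 such gene, Kif18b at -0.35, against 1.94% of all genes. With each of the 6 arrays left out in turn, the median ran from -0.03 to 0.06 for the transport list and from -0.11 to 0.07 for the mitotic list.

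Of the 3 kinesins that regulate microtubules in neurons 1 was above 0 and 2 below, with a median of -0.04. Kif2a, which shortens microtubules and trims axon branches, differed by -0.08 (interval -0.46 to 0.30), and 4 of its 5 probe sets lay below 0. Kif21a and Kif21b, which restrain microtubule growth, differed by 0.10 and -0.04. Among the 3 Kif21a probe sets the differences ran from -0.22 to 0.10.

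Kinesins of cilia, centrioles and Hedgehog signalling were measured in 5 genes, 3 above 0 and 2 below, with a median of 0.07. Kif7, which regulates Hedgehog signalling at the tip of the primary cilium, stood at 6.05, 6.16 and 6.24 in wild type and at 5.94, 6.52 and 6.63 in daDREAM. Its daDREAM replicate 1 was the lowest of the 6 arrays and the other daDREAM arrays the highest, and the difference was 0.21 (interval -0.22 to 0.64). Kif9, a motor of motile cilia, stood at 4.58, 4.48 and 4.57 in wild type and at 4.24, 4.59 and 4.29 in daDREAM, a difference of -0.17 (interval -0.47 to 0.13).

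Kif6, also of motile cilia, differed by -0.04, Kif27, a relative of Kif7, by 0.07, and Kif24, a centriolar depolymerase, by 0.07. Markers of ependyma, the ciliated lining of the ventricles, were above 0 in 9 of 12 genes with a median of 0.12. Of the 12, 3 were higher without overlap (3.55% of all genes) and 0 lower (2.04%). Foxj1, the regulator of motile cilia, differed by 0.31 without overlap (interval -0.03 to 0.65). Cfap126 had the largest difference, 0.41 (interval -0.15 to 0.97), and its genotypes overlapped. The ependymal array means ran from 4.94 to 5.2 in wild type and from 5.0 to 5.35 in daDREAM. The part of ependymal content in the values of Kif6 and Kif9 was not tested.

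Of the 4 other members, Kif26b, which lacks motor activity, stood at 6.12, 6.19 and 6.03 in wild type and at 6.62, 5.43 and 5.67 in daDREAM. Its daDREAM arrays lay on both sides of a narrow wild-type range, and the difference was -0.21 (interval -0.84 to 0.43). That interval was the widest among the brightest probe sets of the family. Kif26a, its relative, differed by -0.07, Kif12 by 0.08 and Kif28 by 0.06.

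The partners and tracks of kinesins gave no call either. Of 22 measured light chains, adaptors and related motors 9 were above 0 and 13 below, with a median of -0.02, and 0 passed the adjusted test. Klc1, a neuronal light chain of conventional kinesin, averaged 11.11 ± 0.19 on wild-type and 10.85 ± 0.20 on daDREAM arrays (SD, n = 3), a difference of -0.25 (interval -0.60 to 0.10). Trak2, the adaptor that joins mitochondria to kinesin, differed by -0.30 (interval -0.81 to 0.21), and Grip1, an adaptor for glutamate receptor cargo, by 0.26 (interval -0.13 to 0.66).

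Dynein, the motor that runs opposite to most kinesins, and its activator dynactin had 7 of 18 genes above 0 and 11 below, with a median of -0.04. Dync1i1, a neuronal dynein intermediate chain, differed by -0.31 (interval -0.73 to 0.12) and Dynll1, a light chain, by -0.18. Tubulins and microtubule-associated proteins had 8 of 19 genes above 0 and a median of -0.02. In that list 1 of 19 genes was higher without overlap (3.55% of all genes) and 2 of 19 were lower (2.04%). Tubb4a, a tubulin of brain, was higher by 0.11 (interval -0.14 to 0.36), Mapt, which encodes tau, was lower by 0.22 on average (interval -0.51 to 0.06), and Dcx, a microtubule protein of migrating neurons, was chosen for mention with its value known and was lower by 0.16 on average (interval -0.43 to 0.10). None passed the adjusted limma test.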

How the data were processed

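The authors deposited log2 expression values for 6 Affymetrix mouse expression arrays. Per the submitters' processing notes they were made with RMA in the affy package, with versions that the sources used here do not give. RMA includes a step that equalises arrays, which would hide a shift shared by most genes, and it compresses dim probe sets. The deposited arrays still differed in width, with interquartile ranges from 2.97 to 3.49. Without the 64 controls, 45037 probe sets entered lmFit and eBayes of limma 3.58.1 (R 4.3.3). Tests were 2-sided, with Benjamini-Hochberg adjustment over the table and a threshold of 0.05. The fit was tested on simulated data with independent noise and 3 arrays per genotype. Of 100 probe sets changed by 1 log2 unit, 40% passed the adjusted test. Of 100 changed by 2 log2 units, 91% passed, and there were 5 false calls. Both sizes were in 1 simulated table, and the adjusted threshold loosens as more probe sets change. The 40% therefore need not hold for a table with fewer changes. Shifts shared by many probe sets of an array, as seen here, were not simulated. Intervals are at 95%. The number of arrays limits the precision. Promoter words were searched with Python 3.11.15.

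The members, lists and tests were chosen with earlier results of these data known. Array values are given for the 4 brightest transport and mitotic kinesins and for up to 4 kinesins per direction with the smallest unadjusted p, and would be for genes whose probe sets differ by over 0.5, of which there were 0. From each other list at most the 2 largest differences and the brightest gene are named. Other genes and probe sets described array by array were chosen after their values were seen.

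Alternatives were a replicate block, quantile normalization, median centring, a level of at least 5, a trended and robust prior, the mean of all probe sets of a gene, and each array left out. Same-numbered arrays deviated from their genotype means with correlations of 0.12, -0.28 and 0.32. Deviations from the mean of so few arrays are tied to each other, so these values cannot decide whether the numbers pair the arrays.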

Additional observations from a re-analysis of the deposited data

How the results depend on the processing

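With limma, 0 kinesin genes and 0 probe sets of the table passed the adjusted test in any setting run, the replicate block included (0 kinesin genes, also 0 at an unadjusted p under 0.05). At an unadjusted p under 0.05 the kinesin count was 0 to 3 when 1 array was left out, and 817 probe sets of the table became 1361 after renewed quantile normalization, 478 at a mean level of at least 5, where fewer were tested, and 324 to 7254 when 1 array was left out. Kinesin probe sets higher without overlap were 5 after median centring (3.03% of all probe sets) and 9 to 23 when 1 array was left out (5.8% to 17.67%). Those lower were 2 after quantile normalization (3.95%), 1 after median centring (3.18%) and 2 to 10 when 1 array was left out. With 1 array left out, the lower share of all probe sets ran from 4.12%, where 5 kinesin probe sets were lower, to 15.04%. Fewer arrays make overlap rarer, but these counts and shares were highest without daDREAM replicate 1. Signs turned for Kif1a after median centring (-0.0033) and for Kif22 with the mean of its probe sets (0.19). The mean of all probe sets also moved Kif5c from -0.15 to -0.0033, Kif1b from -0.13 to -0.044, Kif1a from 0.02 to 0.19, Kif13a from 0.18 to 0.12 and Kif3b from 0.16 to 0.11. When 1 array was left out, Kif1a ran from -0.082 to 0.083, Kif15 from -0.24 to 0.047, Kif22 from -0.175 to 0.125, Kif13a from -0.0033 to 0.35, Kif2c from -0.085 to 0.26 and Kif23 from -0.025 to 0.245. Without a change of sign, Kif5c ran from -0.35 to -0.0017, Kif5a from 0.11 to 0.29, Kif1b from -0.24 to -0.033, Kif3b from 0.067 to 0.22, Kif7 from 0.08 to 0.425, Kif9 from -0.28 to -0.10, Kif11 from -0.26 to -0.077 and Kif14 from -0.24 to -0.027. Otherwise the cause was not tested. Dim probe sets, among them most mitotic kinesins, limit what could be seen.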
